A study of Mus musculus with 6 samples.

Results

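Heat shock proteins and their DNAJ partners were followed in infarcted mouse heart muscle. The set held every gene of the deposited table whose symbol begins with Dnaj, Hspa, Hspb, Hspd, Hspe, Hsph or Hsp90, apart from names marked as pseudogenes by -ps. It came to 69 of 16199 genes. They were 3 HSP90 genes, 1 HSP110 gene, 13 HSP70 genes, 3 genes of the HSP60 and HSP10 chaperonin, 10 genes with an Hspb prefix, and 4 DNAJA, 11 DNAJB and 24 DNAJC genes. RNA was sequenced from 3 mouse myocardium libraries with the genotype label ITIH5 knockdown and from 3 labelled wild type. All 6 came from hearts whose left anterior descending coronary branch had been ligated, sampled 7 days after the infarct. Strain, age, sex and the means of knockdown were not given in the sources used here, and no uninjured heart is among these samples. Whether each library stands for its own mouse is not stated, and the tests therefore speak for library-to-library spread alone, part of which may be technical. The series asked how ITIH5, a secreted matrix-associated protein, bears on scarring and immune cells after infarction.

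Molecular chaperones bind unfolded stretches of other proteins and keep them from clumping until they fold. HSP70 proteins do this in cycles of ATP use, which DNAJ proteins start by handing over a client and triggering ATP hydrolysis, and which nucleotide exchange factors such as HSP110 complete. HSP90 proteins take over partly folded clients such as kinases and steroid receptors, the HSP60 and HSP10 chaperonin folds proteins inside mitochondria, and small heat shock proteins hold unfolded clients without ATP. Separate members serve the cytosol, the endoplasmic reticulum (ER) and the mitochondria. Heart muscle is known for abundant small heat shock proteins, which associate with the contractile filaments, and secretory cells such as scar fibroblasts need ER chaperones to make collagen.

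Values below are on the deposited scale, which is named TPM. TPM is corrected for transcript length, but how these values were made is not stated. Comparisons of level between different genes assume that correction. Itih5 was not lower under the knockdown label. Itih5 was at 18.4, 10.5 and 20.0 in the knockdown-labelled libraries and 9.73, 13.1 and 17.2 in the wild-type libraries (log2 difference 0.26, SE 0.27; exact two-sided permutation p = 0.5, where 0.1 is the smallest that 3 against 3 libraries allow). Directions below therefore refer to the labels. The libraries differed in makeup. Knockdown-labelled library 1 stood apart in mitochondrially encoded and heart muscle transcripts, and libraries 1 and 2 of that group in adipocyte, mesothelial and B cell markers. Mitochondrially encoded transcripts held 32.6% of its summed values, against 14.8% and 20.2% in the other knockdown-labelled libraries and 10.9% to 13.8% in wild type. The summed level of 12 heart muscle markers, all of them detected in every library, was 27450, 13090 and 7768 in the knockdown-labelled libraries, against 9212, 9173 and 8220 in the wild-type libraries. The summed level of 8 macrophage markers was 3490, 7003 and 5874 in the knockdown-labelled libraries, against 10120, 7504 and 7636 in wild type. That of 4 adipocyte markers was 2.34, 4.3 and 1002 in the knockdown-labelled libraries, against 338, 962 and 487.5 in wild type. That of 4 mesothelial markers was 18.4, 26.8 and 132 in the knockdown-labelled libraries, against 66.3, 97.9 and 76.4 in wild type. B cell markers are given below. In such bulk samples, fewer cells of a type and less RNA per cell cannot be told apart.

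The heat shock and DNAJ genes covered 3 orders of magnitude. Of the 69 members, 15 averaged 100 or more over the 6 libraries, 37 had a mean from 10 to under 100, and 17 a mean under 10. The highest were Hsp90ab1, the constitutive cytosolic HSP90 (mean 1047, 970.4 to 1125 over the libraries), and Hspa8, the constitutive cytosolic HSP70 (mean 1040, 871 to 1182). The ranges of these 2 genes overlapped, so their order is not set. Below them, Hspb1 (HSP27), Hsp90b1 (the ER form of HSP90) and Hspa5 (the ER HSP70, also called BiP) had means of 507, 500.5 and 484 with overlapping ranges. All members together summed to 6962, 6534 and 6195 in the knockdown-labelled libraries and to 6920, 6724 and 6540 in the wild-type libraries, which overlapped.

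**Figure D1:**
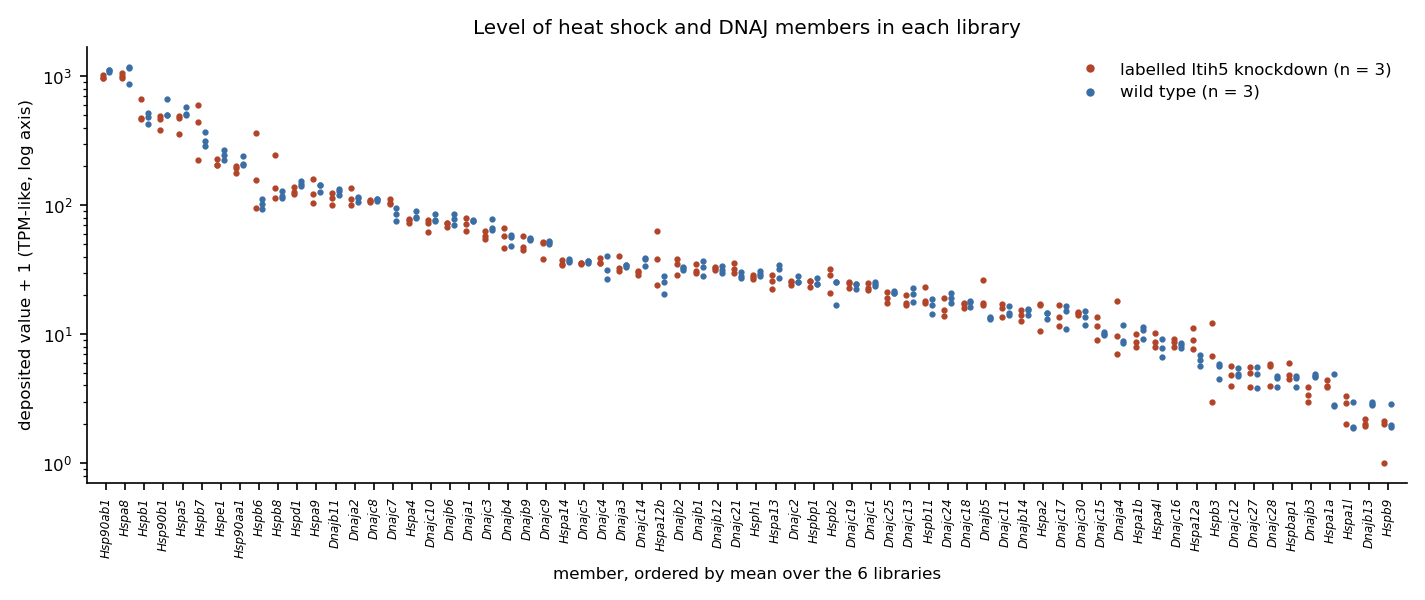
Level of 68 of the 69 members in each library (deposited TPM-like value plus 1, log axis), ordered by the mean over the 6 libraries, with the 3 knockdown-labelled libraries left and the 3 wild-type libraries right of each gene. Most members differ far more from one another than between the groups, and Hspb6, Hspb8 and Hspa12b show 1 high knockdown-labelled library each.

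Stress-inducible members ranged from scarce to abundant. Hspa1b, an inducible cytosolic HSP70, was at 7.02, 7.70 and 8.98 in the knockdown-labelled libraries and 9.77, 10.3 and 8.13 in the wild-type libraries. Its near-identical copy Hspa1a was at 3.44, 2.89 and 2.99 in the knockdown-labelled libraries and 3.92, 1.84 and 1.76 in the wild-type libraries. Both overlapped between the groups. Hspa8 was 129 ± 11.1 times as high as Hspa1b in the knockdown-labelled libraries and 113 ± 7.21 times as high in wild type (SD, n = 3 each). This ratio depends on how reads were divided between Hspa1b and Hspa1a, so neither its size nor its gap between the groups is secure. Because reads of Hspa1a and Hspa1b can hardly be told apart, their sum is safer, and it came to 10.5, 10.6 and 12.0 in the knockdown-labelled libraries and to 13.7, 12.2 and 9.89 in the wild-type libraries. These groups overlapped. Hsp90aa1, the inducible cytosolic HSP90, had a lower level than Hsp90ab1 in every library, by a ratio of 5.23 ± 0.318 in the knockdown-labelled libraries and 5.12 ± 0.538 in wild type (SD, n = 3 each). Dnajb1, the inducible HSP40, was at 29.0, 29.9 and 33.9 in the knockdown-labelled libraries and 32.2, 35.7 and 27.0 in the wild-type libraries, with overlap and a log2 difference of -0.03 (SE 0.13).

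Of the 69 members, 67 reached a mean of 1 and entered the test, which ran over 14025 genes. By limma's moderated test, with Benjamini-Hochberg adjustment across the 14025 genes at 0.05, none of the 67 passed, and neither did any other gene (0 of 14025, 0.0%). The smallest adjusted p among the members was 0.296. At an unadjusted p under 0.05 stood 6 of 67 members, or 8.96%, against 2081 genes or 14.8% of all tested. Of these 6 members, 3 were higher in the knockdown-labelled libraries (8.29% of all genes were) and 3 lower (6.55% of all genes were). The groups did not overlap for 13 of 67 members, or 19.4%, against 22.4% of all genes. By direction, 3 members were higher without overlap (12.6% of all genes) and 10 were lower without overlap (9.88% of all genes). These counts changed with the scaling between libraries. They were 2 and 17 after each library was scaled to its column sum (5.95% and 17.1% of all genes), and 4 and 5 with mitochondrially encoded genes left out and the rest rescaled (17.8% and 6.91% of all genes). The median log2 difference of the members, knockdown-labelled minus wild type, was -0.03, against 0.00 for all tested genes, and 31 members had a higher mean (50.8% of all genes did) and 36 a lower mean (49.2% of all genes did).

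**Figure D2:**
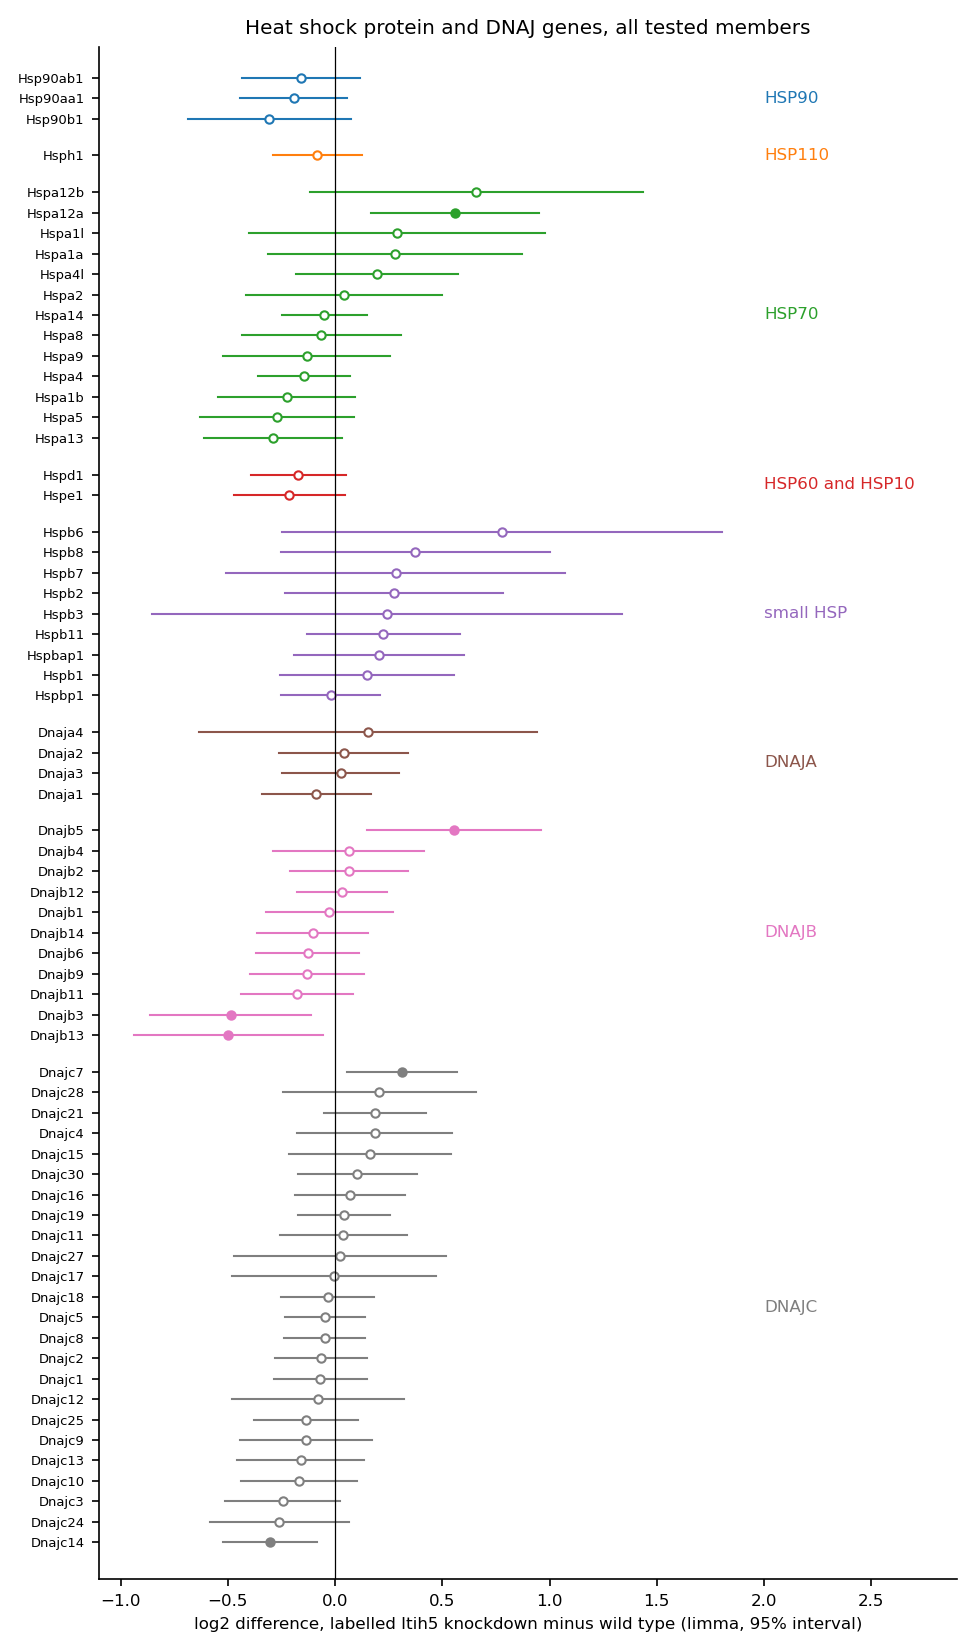
Fitted log2 difference, labelled Itih5 knockdown minus wild type, with its 95% interval for the 67 tested members, grouped by family; filled points have an unadjusted p under 0.05. The HSP90 and chaperonin genes lie left of 0 with intervals that cross it, 8 of 9 tested Hspb genes lie right of 0 with wide intervals, and 6 points are filled.

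The members spread about as widely between libraries of a group as other genes did. The median range within a group, on the log2 scale, was 0.34 for the members and 0.34 for all tested genes in the knockdown-labelled libraries, and 0.21 for the members and 0.26 for all tested genes in wild type. Knockdown-labelled library 1 held the highest value for 24 of 67 members (35.8%, against 25.8% of all genes) and the lowest for 18 (26.9%, against 28.2% of all genes). Knockdown-labelled library 3 held the lowest value for 19 (28.4%, against 12.8% of all genes).

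All 3 HSP90 genes were lower in the knockdown-labelled libraries, by a small margin and without overlap in the deposited values, as were 9.88% of all genes. Hsp90ab1 was at 970.4, 976 and 1023 in the knockdown-labelled libraries and 1116, 1125 and 1073 in the wild-type libraries, a log2 difference of -0.16 (SE 0.12). Hsp90aa1 was at 176, 199 and 194 in the knockdown-labelled libraries and 207, 206 and 238 in the wild-type libraries (log2 difference -0.19, SE 0.11). Hsp90b1 was at 384, 493 and 463 in the knockdown-labelled libraries and 502, 499.6 and 661 in the wild-type libraries, with the highest wild-type value in library 3 (log2 difference -0.31, SE 0.16). Adjusted p-values were 0.511, 0.402 and 0.388 for these genes, so none passed the test. Knockdown-labelled library 1 was the lowest of the 6 for all 3 genes. Without it the log2 difference of Hsp90b1 was -0.20, and without wild-type library 3 those of Hsp90b1 and Hsp90aa1 were -0.17 and -0.12. Hsp90ab1 and Hsp90aa1 also stayed without overlap after scaling to the column sum and with mitochondrially encoded genes left out, while Hsp90b1 overlapped in that last case (17.1% and 6.91% of all genes were lower without overlap under these scalings). The HSP90 genes held 22.0%, 25.5% and 27.1% of the summed member level in the knockdown-labelled libraries, against 26.4%, 27.2% and 30.2% in wild type.

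The mitochondrial chaperonin genes had lower means as well. Hspd1 was at 138, 126 and 122 in the knockdown-labelled libraries and 139, 145 and 152 in the wild-type libraries, where the lowest wild-type library lay just above the highest knockdown-labelled one (log2 difference -0.17, SE 0.09). Hspd1 overlapped once mitochondrially encoded genes were left out. Hspe1, which encodes the lid of the Hspd1 ring, was at 203, 225 and 204 in the knockdown-labelled libraries and 222, 269 and 245 in the wild-type libraries, with overlap (log2 difference -0.21, SE 0.11). Its level was 1.64 ± 0.162 times that of Hspd1 in the knockdown-labelled libraries and 1.69 ± 0.147 times in wild type (SD, n = 3 each), so the pair kept about the same proportion in both groups. The genes lie head to head on mouse chromosome 1 and their first RefSeq starts are 216 bases apart, so they share a promoter stretch. In GENCODE M21 they overlap by 112 exonic bases on opposite strands, where reads cannot be told apart unless strand was used, which is not stated. Both have named pseudogene copies in that annotation, 5 for Hspd1 and 6 for Hspe1, that can draw off reads.

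The shared stretch holds a run of heat shock element units, the kind of site bound by the heat shock factor HSF1, and is shown because both chaperonin genes have it within their windows. A heat shock element is an array of GAA and TTC units facing each other, and the capitals mark its 18 bases. RefSeq places the stretch at chr1:55088053-55088082 on the plus strand of GRCm38.p6.
Hspe1 and Hspd1: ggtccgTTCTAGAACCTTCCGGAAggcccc
Promoter windows from 250 bases before to 50 after a RefSeq start were found for 56 of the 69 members. A pattern of 3 units, GAA, TTC and GAA or TTC, GAA and TTC, each spaced by NN, was searched on both strands and occurred for Dnajb6, Hspd1, Hspe1 and Hsph1, or 4 of 56 members (7.14%), against 0.662% of 27025 genes. The shorter 2-unit patterns GAANNTTC or TTCNNGAA, which the longer ones contain, occurred for 15 of 56 members (26.8%) against 17.0% of all genes. The matches of Hspd1 and Hspe1 are the same site, counted for both genes, and that of Hsph1 lies after its start. A match shows only that these letters are present. Of the 4 genes with a 3-unit match, Hspd1 and Hspe1 are given above and none passed the test.

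Hsph1, the HSP110 nucleotide exchange factor and another heat-inducible gene, was at 25.6, 27.0 and 27.9 in the knockdown-labelled libraries and 28.3, 30.1 and 27.1 in the wild-type libraries. The groups overlapped, with a log2 difference of -0.08 (95% interval -0.29 to 0.12). Dnajb6, a DNAJ protein of the muscle Z-disc mutated in an inherited muscular dystrophy in humans, was at 72.1, 72.2 and 66.9 in the knockdown-labelled libraries and 77.2, 69.5 and 85.0 in the wild-type libraries, again with overlap (log2 difference -0.13, SE 0.10).

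**Figure D3:**
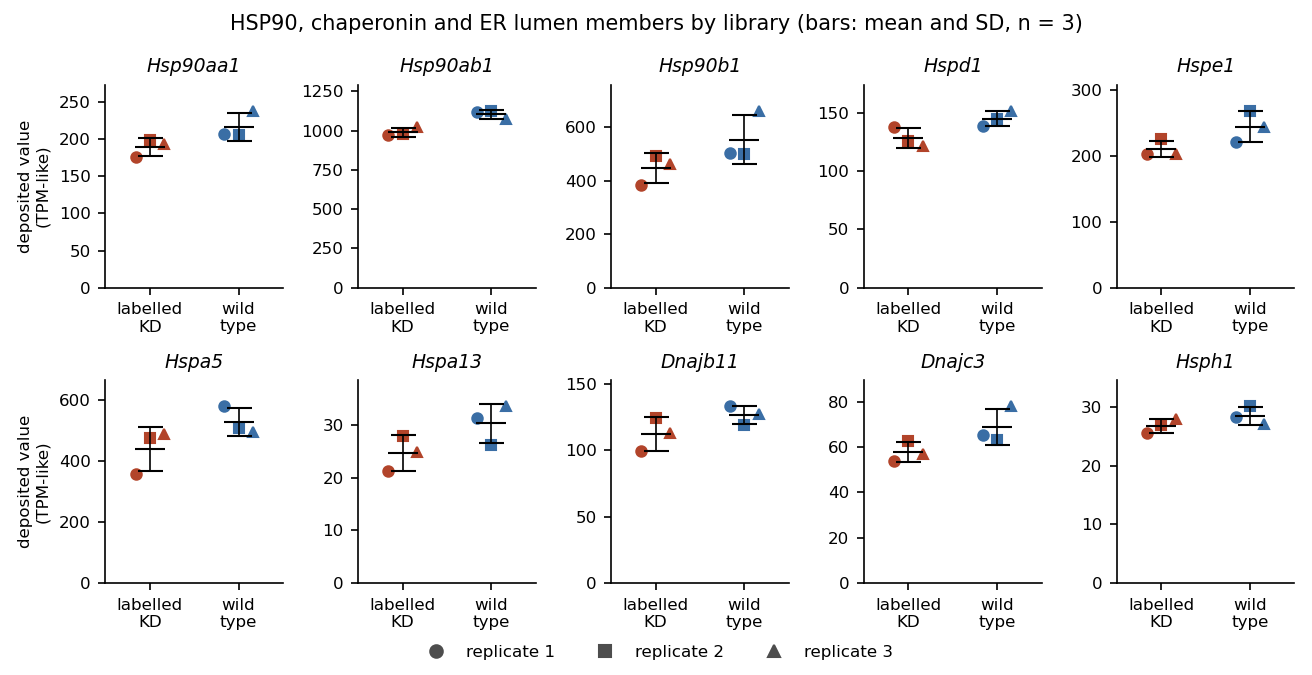
Deposited TPM-like value of 10 HSP90, chaperonin, ER lumen and HSP110 genes in each library, knockdown-labelled left and wild type right, with mean and SD over 3 libraries; the marker shape gives the replicate number. The 3 HSP90 genes, Hspd1, Hspa5 and Dnajc3 are lower without overlap as deposited, as are 9.88% of all genes. Of these, Hsp90b1, Hspd1, Hspa5 and Dnajc3 overlap with mitochondrially encoded genes left out. Knockdown-labelled library 1 is the lowest for 9 of the 10 genes, the exception being Hspd1, and for 28.2% of all genes.

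The 8 members that work inside the ER lumen all had a lower mean in the knockdown-labelled libraries. This grouping by known location was made after the values were seen. The median log2 difference was -0.21, against 0.00 for all tested genes, and 3 of the 8 were lower without overlap, against 9.88% of all genes. None passed the test. Hspa5, the main ER HSP70, was at 358, 475 and 488 in the knockdown-labelled libraries and 579, 508 and 496 in the wild-type libraries (log2 difference -0.27, SE 0.15). Without knockdown-labelled library 1 its log2 difference was -0.13. Hspa13, another HSP70 of the ER, was at 21.2, 27.9 and 24.9 in the knockdown-labelled libraries and 31.3, 26.3 and 33.6 in the wild-type libraries, with overlap (log2 difference -0.29, SE 0.14), and at -0.19 without that library. Hsp90b1 is given above.

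Among the ER DNAJ partners, Dnajc3, an inhibitor of the stress kinase PERK, was at 53.8, 62.6 and 56.9 in the knockdown-labelled libraries and 65.5, 63.0 and 77.9 in the wild-type libraries. The closest pair of libraries from the 2 groups differed by less than 1 rounding step (log2 difference -0.24, SE 0.11). Dnajb11, which binds secretory clients directly, was at 99.1, 124 and 113 in the knockdown-labelled libraries and 133, 119 and 127 in the wild-type libraries, with overlap (log2 difference -0.18, SE 0.11). Dnajc3 was at -0.15 without wild-type library 3, and Dnajb11 at -0.09 without knockdown-labelled library 1. The other 3 were smaller differences with overlap, namely Dnajc10, a disulfide reductase (log2 difference -0.17), Dnajb9, a partner of BiP that represses the stress sensor IRE1 (-0.13), and Dnajc1 (-0.07). Knockdown-labelled library 1 was the lowest of all 6 for 7 of the 8, the exception being Dnajb9. Without that library the median of the 8 was -0.11, and it was -0.17 with mitochondrially encoded genes left out. Markers of secretory and immune cells are given beside this result. The summed level of 7 fibroblast markers was 12560, 19680 and 17130 in the knockdown-labelled libraries and 17740, 17700 and 20660 in the wild-type libraries. Among the 7, 4 had a lower mean, the collagens Col1a1, Col1a2 and Col3a1 included, and Dcn, Tcf21 and Postn had a higher mean. B cell markers had a lower mean for 5 of 5, with a summed level of 61.1, 67.4 and 519.9 in the knockdown-labelled libraries and 799, 672 and 1321 in the wild-type libraries. Macrophage markers had a lower mean for 8 of 8, of which 6 did not overlap (9.88% of all genes were lower without overlap), with the sums given above. Of 4 smooth muscle and myofibroblast markers, 3 had a lower mean, 1 of them without overlap, and 1 a higher mean. Their summed level was 681, 1103 and 1171 in the knockdown-labelled libraries and 1323, 1202 and 1583 in the wild-type libraries. The part of these cell types in the ER values was not tested.

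The 250 bases before the RefSeq start of 3 of these genes are shown because they hold exact copies of the ER stress response element, CCAAT and CCACG with 9 bases of any kind between them, which the unfolded protein response factors ATF6 and XBP1 are known to use. Searched on both strands, it occurred in the windows of Dnajc3, Hsp90b1 and Hspa5, 3 of 56 members (5.36%), against 0.137% of 27025 genes. Capitals mark the element, on either strand. In GRCm38.p6 the stretches are chr2:34771840-34772089 on the plus strand for Hspa5, chr10:86705445-86705694 on the minus strand for Hsp90b1 and chr14:118937682-118937931 on the plus strand for Dnajc3. Hsp90b1 holds 2 copies and the others 1 each.
Hspa5: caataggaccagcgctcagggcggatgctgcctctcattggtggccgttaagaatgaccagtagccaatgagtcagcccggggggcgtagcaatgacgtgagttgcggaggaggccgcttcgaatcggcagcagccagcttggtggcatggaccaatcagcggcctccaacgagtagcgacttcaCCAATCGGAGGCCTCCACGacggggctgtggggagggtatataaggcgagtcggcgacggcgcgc
Hsp90b1: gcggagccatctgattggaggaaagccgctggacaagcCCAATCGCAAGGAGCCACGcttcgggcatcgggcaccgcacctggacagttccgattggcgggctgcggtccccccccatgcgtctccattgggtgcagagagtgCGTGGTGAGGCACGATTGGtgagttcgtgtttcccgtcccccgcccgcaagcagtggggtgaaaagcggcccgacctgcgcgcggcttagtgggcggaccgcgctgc
Dnajc3: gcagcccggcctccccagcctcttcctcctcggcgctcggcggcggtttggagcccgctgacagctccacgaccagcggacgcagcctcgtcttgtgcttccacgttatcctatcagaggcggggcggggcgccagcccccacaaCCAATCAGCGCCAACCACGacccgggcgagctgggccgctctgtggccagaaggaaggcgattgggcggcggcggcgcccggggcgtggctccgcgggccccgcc
The 3 genes with the element had log2 differences of -0.27, -0.31 and -0.24, and none passed the test. All 3 were lower without overlap as deposited, against 9.88% of all genes, and overlapped with mitochondrially encoded genes left out. They are the same 3 counted above among the ER lumen members, and knockdown-labelled library 1 was the lowest for each.

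The remaining HSP70 genes pointed both ways. Hspa8 was at 974, 1012 and 1051 in the knockdown-labelled libraries and 1182, 1149 and 871 in the wild-type libraries; wild-type library 3 was the lowest of the 6 and the groups overlapped (log2 difference -0.06, SE 0.16). Hspa9, the mitochondrial HSP70, was at 159, 120.3 and 103 in the knockdown-labelled libraries and 144, 126 and 144 in the wild-type libraries, with overlap (log2 difference -0.13, SE 0.16). Hspa4, an exchange factor of the HSP110 type, was at 75.6, 77.0 and 71.8 in the knockdown-labelled libraries and 80.1, 78.9 and 89.5 in the wild-type libraries, without overlap (log2 difference -0.14, SE 0.09), but overlapped with mitochondrially encoded genes left out. Hspa1b had a log2 difference of -0.23 (SE 0.14) and Hspa1a one of 0.28 (SE 0.25), both with overlap. Hspa1a shares 564 exonic bases, 19.0% of its exons, with Gm20481 on the opposite strand. The ribosome-associated Hspa14 (-0.05), Hspa4l (0.20), and the testis-enriched Hspa2 (0.04) and Hspa1l (0.29) also overlapped.

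The distant HSP70 relatives Hspa12a and Hspa12b had the largest positive differences of the family. Hspa12a was at 10.2, 6.73 and 7.99 in the knockdown-labelled libraries and 5.85, 4.64 and 5.32 in the wild-type libraries, without overlap (log2 difference 0.56, SE 0.17, adjusted p = 0.296). Its groups also stayed apart after scaling to the column sum and with mitochondrially encoded genes left out. Hspa12b, which is expressed in endothelial cells, was at 62.4, 23.0 and 36.9 in the knockdown-labelled libraries and 27.3, 24.3 and 19.4 in the wild-type libraries, with overlap (log2 difference 0.66, SE 0.33). Knockdown-labelled library 1 was the highest, and without it the log2 difference of Hspa12b was 0.30. The summed level of 5 endothelial markers, all detected in every library, was 912, 390.1 and 612 in the knockdown-labelled libraries, the same order as Hspa12b, against 486, 461 and 502 in wild type. The part of these markers in the Hspa12b values was not tested.

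The small heat shock genes mostly had higher means, with the highest value of most in knockdown-labelled library 1. Of 9 tested genes with the Hspb prefix, 8 had a higher mean in the knockdown-labelled libraries, with a median log2 difference of 0.24 (all tested genes 0.00), none was without overlap and none passed the test. Hspb6 (HSP20), abundant in heart and smooth muscle, was at 363, 156 and 93.8 in the knockdown-labelled libraries and 111, 91.9 and 102 in the wild-type libraries (log2 difference 0.78, SE 0.43). Knockdown-labelled library 3 lay within the wild-type range, library 2 was moderately above it and library 1 far above it. Hspb8, a partner of BAG3 in the removal of damaged muscle filaments, was at 243, 136 and 112 in the knockdown-labelled libraries and 116, 113 and 129 in the wild-type libraries (log2 difference 0.38, SE 0.27). Hspb7, a heart-enriched form that binds filamin C, was at 594, 442 and 222 in the knockdown-labelled libraries and 365, 312 and 285 in the wild-type libraries, the knockdown-labelled libraries spanning both sides of wild type (log2 difference 0.28, SE 0.34).

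Other striated muscle forms had the same order of libraries at lower levels. Hspb3 was at 11.3, 5.76 and 1.99 in the knockdown-labelled libraries and 4.89, 4.70 and 3.48 in the wild-type libraries (log2 difference 0.24, SE 0.47). Hspb2, which binds the myotonic dystrophy kinase, was at 31.0, 28.0 and 20.0 in the knockdown-labelled libraries and 24.4, 24.4 and 16.0 in the wild-type libraries (log2 difference 0.28, SE 0.22). Hspb2 shares 252 exonic bases, 30.2% of its exons, with the opposite-strand gene Cryab, whose reads may be counted in it. Hspb1, expressed in many cell types, was at 669.7, 468 and 470.0 in the knockdown-labelled libraries and 519.6, 484 and 429 in the wild-type libraries; only knockdown-labelled library 1 lay above the wild-type range (log2 difference 0.15, SE 0.17).

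Cryab, the alpha-B-crystallin gene and a small heat shock gene without the Hspb prefix, was at 1749, 1036 and 755 in the knockdown-labelled libraries and 969.9, 797 and 809 in the wild-type libraries (log2 difference 0.38, SE 0.29). All 12 heart muscle markers had a higher mean in the knockdown-labelled libraries, with a median log2 difference of 0.65, and 4 of them were higher without overlap, against 12.6% of all genes. The marker score of a library, the mean over the markers of the log2 value minus the mean of the gene, was 1.304, 0.21 and -0.50 in the knockdown-labelled libraries and -0.31, -0.32 and -0.39 in the wild-type libraries. For Hspb6, Hspb8, Hspb7, Hspb3 and Hspb2 the knockdown-labelled libraries followed the same order, with library 1 highest and library 3 lowest. The part of heart muscle content in these values was not tested. Without knockdown-labelled library 1, the median of the 9 genes was 0.05, the log2 difference of Hspb6 was 0.25, and those of Hspb7 and Hspb1 were -0.02 each, with Hspb8 at 0.05 and Hspb2 at 0.15. The genes with the Hspb prefix, which leave out Cryab, made up 28.1%, 19.7% and 15.6% of the summed member level in the knockdown-labelled libraries and 17.1%, 16.0% and 15.4% in wild type.

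**Figure D4:**
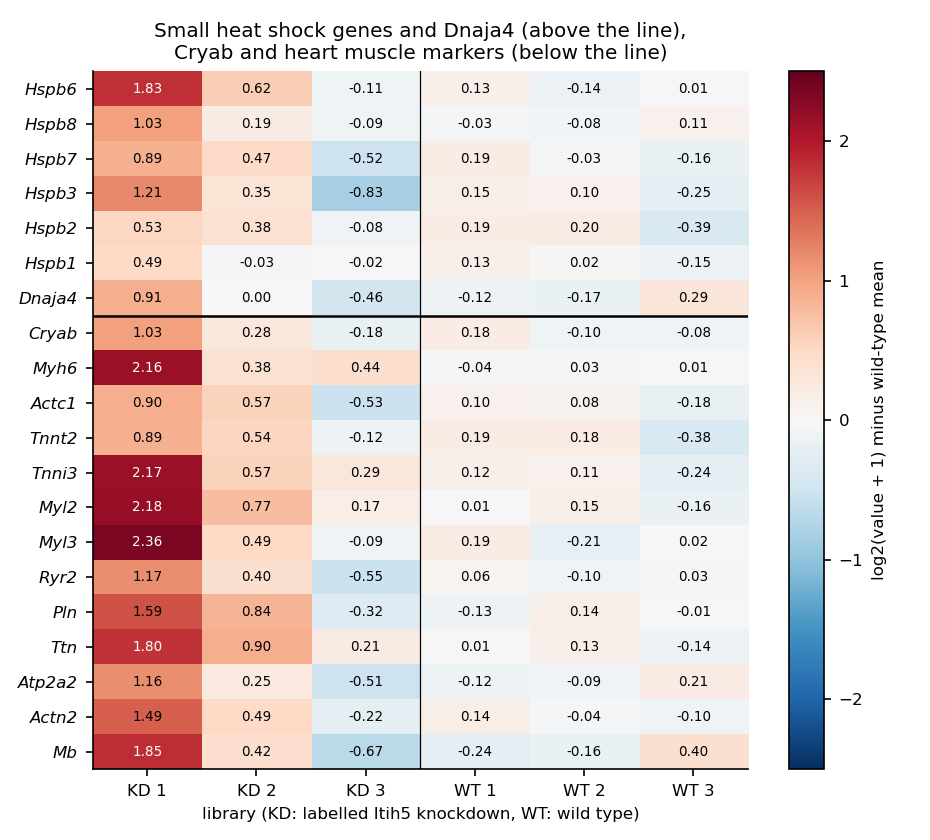
Log2(value + 1) minus the wild-type mean of the gene, for 6 small heat shock genes and Dnaja4 above the line and for Cryab and 12 heart muscle markers below it, in each library. Knockdown-labelled library 1 is above the wild-type mean for every gene shown, by 1.83 for Hspb6 and 2.36 for Myl3, while knockdown-labelled library 3 is below it for all 7 genes above the line.

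Not every gene with the Hspb prefix encodes a small heat shock protein. Hspbp1, an exchange factor for HSP70, was at 22.1 to 26.3 over the 6 libraries (log2 difference -0.02, SE 0.10). Hspb11, now known as a subunit of the intraflagellar transport machinery of cilia, was at 16.3, 22.2 and 17.0 in the knockdown-labelled libraries and 17.6, 15.9 and 13.4 in the wild-type libraries, with overlap (log2 difference 0.23, SE 0.15). Hspbap1, a protein that binds HSPB1, had a log2 difference of 0.20 on values of only 3 to 5 rounding steps. Hspb9, a testis form, was listed at 0 in 1 library and at no more than 1.89 in the others, and was not tested.

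The DNAJA genes, the general partners of HSP70, did not differ beyond the spread of the libraries. Dnaja1 was at 70.7, 61.6 and 78.8 in the knockdown-labelled libraries and 74.2, 75.1 and 74.1 in the wild-type libraries and Dnaja2 at 134, 111 and 98.8 in the knockdown-labelled libraries and 112, 104 and 115 in the wild-type libraries. The mitochondrial Dnaja3, whose loss in mouse heart is known to cause dilated cardiomyopathy, was at 39.3, 31.8 and 29.9 in the knockdown-labelled libraries and 33.2, 31.9 and 33.3 in the wild-type libraries. Their log2 differences were -0.09 (95% interval -0.34 to 0.17), 0.04 (-0.26 to 0.34) and 0.03 (-0.25 to 0.30). Dnaja4 was at 17.1, 8.62 and 5.99 in the knockdown-labelled libraries and 7.82, 7.52 and 10.8 in the wild-type libraries, high in knockdown-labelled library 1 (log2 difference 0.15, SE 0.33). Without that library its log2 difference was -0.23. Dnaja4 shares 1581 exonic bases, 44.1% of its exons, with Wdr61 on the opposite strand.

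Among the DNAJB genes, Dnajb5 was the clearest of the higher members. Dnajb5, an HSP70 partner that takes part in thioredoxin control of the histone deacetylase HDAC4 in heart muscle, was at 25.1, 16.4 and 16.0 in the knockdown-labelled libraries and 12.7, 12.2 and 12.4 in the wild-type libraries. The wild-type libraries lay close together, and all knockdown-labelled libraries were above them (log2 difference 0.56, SE 0.17, adjusted p = 0.298). Library 1 was the highest, and without it the log2 difference was 0.35. Library 1 also had the highest heart muscle marker score, and the part of heart muscle content in the Dnajb5 values was not tested. Dnajb5 and Hspa12a were at an unadjusted p under 0.05 under each of the 15 alternative settings. Per setting, the share of all genes there was 7.12% to 18.3%. Both stayed higher without overlap after scaling to the column sum (5.95% of all genes) and with mitochondrially encoded genes left out (17.8% of all genes). The settings reuse the same libraries, and both genes were named for a small p.

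Dnajb3 and Dnajb13 were lower, at levels of only a few rounding steps. Dnajb3, a spermatid form in mouse, was at 2.38, 2.88 and 1.99 in the knockdown-labelled libraries and 3.91, 3.76 and 3.63 in the wild-type libraries (log2 difference -0.49, SE 0.16). In units of the rounding step of each library these are 2, 3 and 2 steps in the knockdown-labelled libraries and 4, 4 and 4 in wild type. Dnajb13, a protein of the cilium and sperm tail axoneme, was at 1.19, 0.954 and 0.997 in the knockdown-labelled libraries and 1.96, 1.88 and 1.82 in the wild-type libraries (log2 difference -0.50, SE 0.19), or 1 step in each knockdown-labelled library and 2 steps in each wild-type library. It shares 305 exonic bases with Ucp2 on the opposite strand. The other 8 DNAJB genes, the stress-inducible Dnajb1 and the ER forms Dnajb9 and Dnajb11 included, overlapped between the groups. Their log2 differences ran from -0.18 for Dnajb11 to 0.06 for Dnajb4, with Dnajb14 at -0.10, Dnajb12 at 0.03 and the neuron-enriched Dnajb2 at 0.06.

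The DNAJC genes, 24 in all and all tested, share little beyond the J domain that contacts HSP70, and 10 had a higher and 14 a lower mean. Dnajc7, which carries tetratricopeptide repeats that bind HSP70 and HSP90, was at 101, 103 and 109.8 in the knockdown-labelled libraries and 84.9, 93.9 and 74.6 in the wild-type libraries, higher without overlap (log2 difference 0.31, SE 0.11, adjusted p = 0.302), but it overlapped after scaling to the column sum. Dnajc14, an ER membrane protein, was at 29.1, 27.9 and 29.9 in the knockdown-labelled libraries and 37.1, 32.9 and 38.1 in the wild-type libraries, lower without overlap under each scaling (log2 difference -0.30, SE 0.09, adjusted p = 0.297). It shares 1114 exonic bases, 17.0% of its exons, with Ormdl2 on the opposite strand. Dnajc24, an enzyme cofactor in diphthamide synthesis, was at 12.9, 14.4 and 18.0 in the knockdown-labelled libraries and 16.6, 19.8 and 18.1 in the wild-type libraries, with overlap (log2 difference -0.26, SE 0.14), and at -0.16 without knockdown-labelled library 1.

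**Figure D5:**
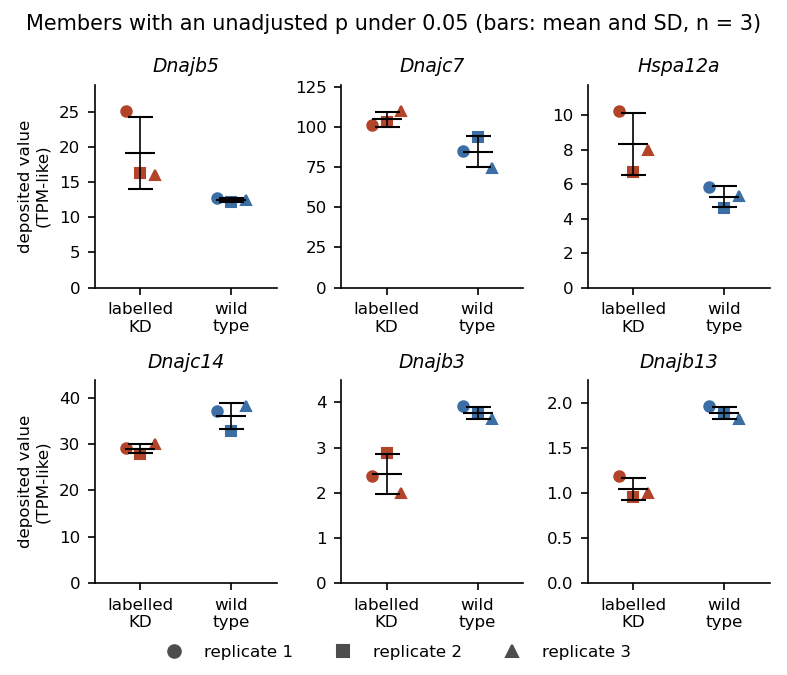
Deposited TPM-like value of the 6 members with an unadjusted p under 0.05, knockdown-labelled left and wild type right, with mean and SD over 3 libraries; the marker shape gives the replicate number. Dnajb5, Dnajc7 and Hspa12a are higher and Dnajc14, Dnajb3 and Dnajb13 lower without overlap, and the last pair stay under 4 on the vertical axis.

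Most other DNAJC genes had small differences. The splicing-associated Dnajc8 was the steadiest of the abundant ones, at 107, 104 and 108 in the knockdown-labelled libraries and 111, 111 and 107 in the wild-type libraries (log2 difference -0.05, SE 0.08). Dnajc5, the cysteine string protein of secretory vesicles, was at 34.8, 33.7 and 34.9 in the knockdown-labelled libraries and 36.1, 34.8 and 36.1 in the wild-type libraries (log2 difference -0.05, SE 0.08). Dnajc21, a ribosome biogenesis factor, was at 34.6, 30.8 and 28.9 in the knockdown-labelled libraries and 27.3, 29.1 and 26.0 in the wild-type libraries, with overlap (log2 difference 0.19, SE 0.10). The histone chaperone Dnajc9 was low in knockdown-labelled library 1 alone, at 37.5, 50.1 and 50.9 in the knockdown-labelled libraries and 50.8, 48.8 and 51.5 in the wild-type libraries (log2 difference -0.14, SE 0.13). The endosomal Dnajc13 had a log2 difference of -0.16, the ribosome-bound Dnajc2 one of -0.07, Dnajc25 one of -0.14 and Dnajc4 one of 0.18.

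Mitochondrial DNAJC members had small positive differences, all with overlap. Dnajc19, mutated in a human cardiomyopathy with ataxia, was at 24.4, 24.1 and 21.9 in the knockdown-labelled libraries and 21.5, 23.5 and 23.4 in the wild-type libraries (log2 difference 0.04, SE 0.09). Dnajc15, a partner of the protein import motor, was at 12.7, 10.6 and 7.98 in the knockdown-labelled libraries and 8.79, 9.40 and 8.95 in the wild-type libraries (log2 difference 0.16, SE 0.16). Dnajc11 (0.04) and Dnajc30 (0.10) also overlapped. For the 8 members grouped here as mitochondrial, these 4 with Dnaja3, Hspa9, Hspd1 and Hspe1, 5 had a higher and 3 a lower mean, with a median of 0.03. The remaining DNAJC genes overlapped as well, namely Dnajc16 (0.07), Dnajc17 (-0.01), Dnajc18 (-0.04), and Dnajc12, Dnajc27 and Dnajc28, which lay at 3 to 5 rounding steps (-0.08, 0.03 and 0.21).

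The wider chaperone network was read from lists that do not contain the members. None of its genes passed the test. Of 4 tested HSF regulators, Hsf1, the master activator of heat shock genes, was higher without overlap as deposited, as were 12.6% of all genes. It was at 25.4, 23.1 and 25.9 in the knockdown-labelled libraries and 18.5, 20.6 and 17.9 in the wild-type libraries (log2 difference 0.37, SE 0.10, adjusted p = 0.296). Its groups overlapped after scaling to the column sum. Hsf2 (0.17) and Hsf4 (0.09) overlapped. Of 14 genes of the cytosolic chaperonin TRiC and its partner prefoldin, 10 had a lower mean (median -0.08) and 5 were lower without overlap, against 9.88% of all genes. They were led by Cct5 at 169.7, 173 and 181 in the knockdown-labelled libraries and 234, 208 and 209.6 in the wild-type libraries (log2 difference -0.31, SE 0.10), Cct3 (-0.22) and Tcp1 (-0.21).

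ER folding and unfolded protein response genes had a lower mean for 15 of 17 (median -0.18). Knockdown-labelled library 1 was the lowest of the 6 for 12 of the 17. The list's score, formed as for the heart muscle markers, was -0.304, 0.037 and 0.047 in the knockdown-labelled libraries and 0.101, 0.083 and 0.036 in the wild-type libraries, so that only library 1 of the knockdown-labelled group lay below the wild-type range. The 3 with the smallest p were Ddit3, the stress-induced factor CHOP, higher at 58.9, 59.8 and 62.9 in the knockdown-labelled libraries and 48.8, 53.5 and 37.5 in the wild-type libraries (log2 difference 0.39, SE 0.14), the lectin chaperone Canx (-0.25) and the disulfide isomerase Pdia4 (-0.39). Nucleotide exchange factors and BAG proteins were split 5 and 5 (median -0.01), with the mitochondrial Grpel2 higher (0.29) and the ER factors Sil1 (-0.31) and Hyou1 (-0.34) lower. The 26 co-chaperones of HSP90 and HSP70 were split 14 higher and 12 lower (median 0.00). Among them Ppid, a prolyl isomerase that binds HSP90, was at 50.7, 43.4 and 44.9 in the knockdown-labelled libraries and 33.2, 38.5 and 34.0 in the wild-type libraries (log2 difference 0.39, SE 0.10), followed by Cdc37l1 (0.36) and Sgtb (-0.51). Mitochondrial chaperones and proteases had a higher mean for 9 of 11 (median 0.10), with the protease subunit Clpp at 69.3, 65.5 and 65.9 in the knockdown-labelled libraries and 53.7, 60.1 and 48.4 in the wild-type libraries (log2 difference 0.31, SE 0.10), Clpb (0.20) and Timm44 (0.18). Immediate early genes, which respond to tissue handling, had overlapping groups for all 7 listed, with a median of -0.08.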

How the data were processed

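Poly(A)-selected RNA of infarcted mouse heart was sequenced in 3 libraries labelled Itih5 knockdown and 3 labelled wild type. Reads were tied to mm10, as the submitters' processing notes list, and the labels' protocols name more than 1 library kit. Aligner, quantifier and strand setting were not given in the sources used here. Per gene and library the authors deposited a number that their file calls TPM, treated here as a score. Columns summed to between 901563 and 1159657. Low values lay at whole multiples of a step of 0.889 to 1.163 that differs by library, as if TPM had been rounded and rescaled, a step not stated, and this limits low genes. Knockdown-labelled library 1 held 1078 values between 0 and 0.2, the others none. The number of reads is unknown and no count model was used. The planned test assumed TPM, and limma on the log2 scale was kept, though whether it suits such stepped values was not shown. For genes at a few rounding steps, such as Dnajb13 and Dnajb3, the spread within a group can come largely from rescaling. Their p-values are therefore less secure.

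A single untested member is counted but not reported here. Of rows sharing a symbol, 6 with the lower mean were left out. Genes with a mean of at least 1 (14025) were analysed as log2(value + 1) by limma 3.58.1 (R 4.3.3), using an intensity trend, no covariate and Benjamini-Hochberg adjustment at 0.05 over all genes. Fold changes on this scale understate changes of low genes. The fit was tested on simulated data. Members, lists and tests were chosen with earlier results of these data known. Values in each library are given for the 4 members with the smallest p and the 2 with the highest mean of the larger families, all of the smaller ones and the stress-inducible genes, and further members were added after the values were seen. Of each pathway list the 3 genes with the smallest p are named. Coordinates come from GENCODE M21, which held 68 of the 69 members, and promoter sequences from RefSeq on GRCm38.p6. Alternatives covered pseudocount, filter, scaling, trend, replicate block and leaving out each library. No 2 libraries held identical values (Pearson correlation across tested genes 0.936 to 0.984).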

Additional observations from a re-analysis of the deposited data

How the results depend on the processing

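No member passed the adjusted test under any of the 15 alternatives. The number of members at an unadjusted p under 0.05, 6 as reported, ran from 3 (without wild-type library 1, when 2 of the same 6 remained) to 9 (without knockdown-labelled library 2 or 3) when 1 library was left out. The share of all genes moved too. It was 7.12% without wild-type library 1, and 16.8% and 18.3% without knockdown-labelled libraries 2 and 3, against 14.8% as reported. Over all genes, 0 to 13 passed when 1 library was left out, 13 without knockdown-labelled library 3 and 2 without wild-type library 2, none of them a member. With libraries scaled to their column sum the median of all tested genes was -0.13 and that of the members -0.165, and with mitochondrially encoded genes left out they were 0.055 and 0.015, so the members stayed slightly below the median gene. The 34 members chosen by rule gave 507 values under the alternatives, of which 14 had the opposite sign. By column sum, Dnaja2 was at -0.10 and Dnaja3 at -0.11. Without mitochondrially encoded genes Dnajb1 was at 0.02, and by quantile normalization Dnajc8 at 0.008. When single libraries were left out, the log2 difference ran from -0.172 to 0.004 for Dnaja1, -0.079 to 0.140 for Dnaja2, -0.087 to 0.103 for Dnaja3, -0.228 to 0.458 for Dnaja4, -0.132 to 0.063 for Dnajb1, -0.203 to 0.016 for Hspa8, -0.022 to 0.236 for Hspb1 and -0.024 to 0.682 for Hspb7. The cause was not tested. Deviations of same-numbered libraries correlated at 0.06, 0.06 and 0.14, and those of different-numbered libraries at -0.109 to 0.06. These weak values cannot settle whether replicate numbers pair the libraries. With a replicate block, 6 members stood at an unadjusted p under 0.05 (12.9% of all genes did) and 4 of the same 6 remained. Depth is unknown, and for the 10 members with a mean under 5 a difference of 1 rounding step is the smallest that can show.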
